A study of Mus musculus with 8 samples.

Results

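Described here are 10 acute-phase protein genes of the mouse liver, Saa1, Saa2, Saa3, Saa4, Orm1, Orm2, Hp, Hpx, Lcn2 and Crp, out of 55341 gene symbols in GENCODE release M21 (mm10). They were chosen by name, for the proteins they encode, with earlier results of these data known. For each of them, the H3K27ac regions that hold a transcription start site (TSS), lie in the gene body or come within 50 kb of a TSS were collected, with their class and width. Distances to regions that hold no TSS of a gene are counted from its nearest annotated TSS. The data come from mouse primary hepatocytes (MPH) of wild-type C57Bl6 adult male mice (C57BL/6J in the study's methods), kept in William's medium without serum. MPH received either 1 µM thapsigargin, which blocks the calcium pump of the endoplasmic reticulum and so causes endoplasmic reticulum stress (ERS), or the vehicle alone, 0.04% DMSO. Both treatments lasted 4 h, and each has 3 H3K27ac ChIP-seq libraries from independent preparations and 1 input library, 8 libraries in all. The authors had combined these libraries into 3 lists of positions, H3K27ac UP, H3K27ac DOWN and H3K27ac unchanged. They hold no count, signal, fold change or p-value, so depth is unknown, the spread between preparations cannot be given, and no test between treatments could be made.

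Acute-phase proteins are plasma proteins whose output by hepatocytes rises or falls during inflammation. IL-6 acting through STAT3, and IL-1 and TNF acting through NF-kB, induce them together with C/EBP factors, and the ER-resident factor CREB3L3 (CREBH) links ERS to some of them, Crp and Apcs included. H3K27ac is an acetyl mark on histone H3 found at active promoters and enhancers. A wide H3K27ac region around a gene that hepatocytes express strongly is a usual feature of liver chromatin.

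The 10 genes were split between the classes at their starts. Hp, Hpx and Crp had their TSSs in H3K27ac DOWN regions, Orm1 had its TSS in an H3K27ac UP region, and Saa4 and Lcn2 had theirs in unchanged regions. Saa1, Saa2, Saa3 and Orm2 had no TSS in any region. A region counts as UP or DOWN when the authors' test called it changed at an FDR of 0.05 or less and its bins mostly moved in that direction, and an unchanged region is a region that missed this FDR, which does not show that its H3K27ac stayed the same. A gene with no region had no listed region at its start, which does not show that the mark was absent or stayed the same. A peak is in none of the 3 lists if it failed the authors' filters. It is also in none if its FDR was 0.05 or less but its UP to DOWN bin ratio lay between 0.5 and 2. Of 12261 gene symbols with a TSS in any region, 8.91% had a TSS in a DOWN region, 21.4% in an UP region and 73.7% in an unchanged region. Among the 6 acute-phase genes with such a region, 3 were DOWN, 1 was UP and 2 were unchanged. Over all gene symbols 22.2% had a TSS in a region, and over protein-coding genes 44.7%. Genes of 1 family share a locus (the 4 Saa genes, and Orm1 with Orm2), so the 10 genes are not 10 independent observations.

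**Figure D1:**
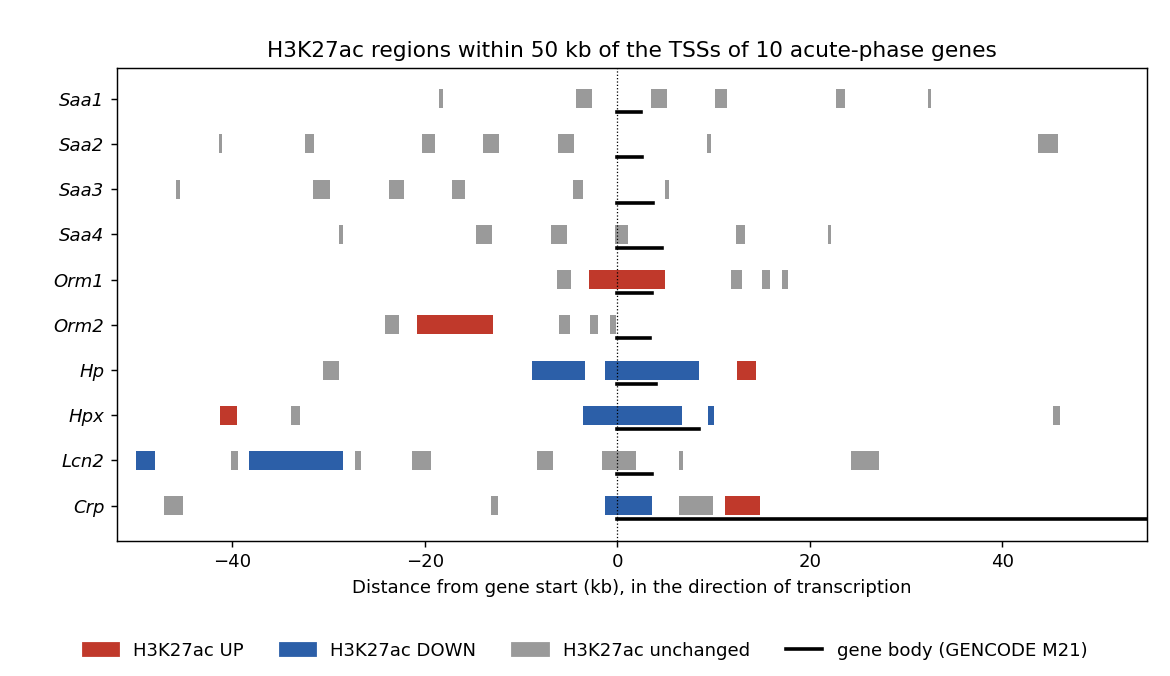
H3K27ac regions around the starts of the 10 genes, with distance from the gene start in kb on the horizontal axis, counted in the direction of transcription, and 1 gene per row. Boxes are regions colored by class, and the black line under each row is the gene body (that of Crp runs past the right edge); DOWN boxes cover the starts of Hp, Hpx and Crp, an UP box covers that of Orm1, and the Saa rows hold only unchanged boxes.

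The listed directions were checked on genes outside the acute-phase set. Hspa5, the ER chaperone BiP, Ddit3, the stress factor CHOP, and Herpud1, a component of ER-associated degradation, all had a TSS in an UP region, 3 of 3. UP is therefore read as higher H3K27ac under thapsigargin. The cells labelled as hepatocytes were checked on marker genes as well. All 6 hepatocyte markers had a TSS in a region (Apoa1 and Serpina1a in DOWN regions, the other 4 in unchanged regions), against 0 of 6 for Kupffer cells, 0 of 4 for stellate cells, 0 of 4 for leukocytes, 1 of 6 for endothelial cells (Stab2, unchanged) and 2 of 4 for cholangiocytes (Sox9, UP, and Spp1, unchanged).

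Haptoglobin (Hp) and hemopexin (Hpx) are scavengers that the liver secretes to bind free hemoglobin and free heme. Both lay in wide DOWN regions. Hp (chr8:109575128-109579172, minus strand) had its 3 annotated TSSs and all 5 exons inside a DOWN region of 9757 bp, chr8:109570651-109580407. That region began 1235 bp upstream of the gene start, ran 8521 bp downstream of it and covered 100% of the gene body. It extended past the 3' end of Hp and also overlapped the neighboring gene Txnl4b. A second DOWN region of 5457 bp, chr8:109582554-109588010, lay 3382 bp upstream of the start, and 2146 bp separated both DOWN regions. Of 18802 bp of H3K27ac regions within 50 kb of Hp, 15214 bp were DOWN. The other 2 regions were an UP region of 1920 bp, 11933 bp downstream, which holds the starts of the neighbors Dhx38 and Txnl4b, and an unchanged region of 1668 bp at Dhodh, 28933 bp upstream.

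Hpx (chr7:105591613-105600137, minus strand) had both of its annotated TSSs in a DOWN region of 10322 bp, chr7:105593408-105603729, the widest of the regions at the 10 genes. The region reached 3592 bp upstream and 6729 bp downstream of the start, and covered 78.9% of the gene body with 7 of 10 exons. A further DOWN region of 627 bp lay 9431 bp downstream of the nearest TSS, past the 3' end of Hpx. Unchanged regions of 948 bp (Trim3) and 789 bp (Smpd1) lay 33002 bp and 45218 bp away. The nearest UP region, of 1782 bp, was 39538 bp upstream at the starts of Arfip2, Timm10b and Gm45799. At both scavenger genes the DOWN class thus covered the start and most or all of the gene body, and the UP regions in the window lay at the starts of other genes.

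The Hpx and Crp promoters are printed because they lie entirely in DOWN regions. They run from 250 bases before the RefSeq start to 50 bases from it (GRCm38.p6, the mm10 assembly, sequence from RefSeq), 5' to 3' on the strand of the gene. Capitals mark a match to TTNNGCAA, the letters searched for C/EBP, on either strand. Hpx is chr7:105600067-105600366 on the minus strand and Crp is chr1:172697806-172698105 on the plus strand.
Hpx: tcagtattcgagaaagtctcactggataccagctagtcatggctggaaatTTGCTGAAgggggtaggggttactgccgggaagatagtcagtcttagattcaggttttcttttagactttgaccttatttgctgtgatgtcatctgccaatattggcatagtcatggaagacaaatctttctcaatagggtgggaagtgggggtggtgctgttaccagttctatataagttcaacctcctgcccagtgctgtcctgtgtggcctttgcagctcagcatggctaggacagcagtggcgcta
Crp: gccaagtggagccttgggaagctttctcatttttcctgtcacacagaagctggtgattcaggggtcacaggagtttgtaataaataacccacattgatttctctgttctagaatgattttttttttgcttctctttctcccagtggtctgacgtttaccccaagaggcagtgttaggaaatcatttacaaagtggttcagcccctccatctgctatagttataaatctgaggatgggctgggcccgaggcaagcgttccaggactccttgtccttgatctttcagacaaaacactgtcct

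C-reactive protein (Crp) is a pentraxin that binds phosphocholine on microbes and damaged cells, and in mice it is a minor acute-phase reactant. Its start and both exons of its coding transcript (1908 bp) lay in a DOWN region of 4944 bp, chr1:172696763-172701706, from 1292 bp upstream to 3651 bp downstream of the start. Going downstream, the class changed within a short distance. An unchanged region of 3547 bp followed 6368 bp from the nearest TSS after a gap of 2717 bp, and an UP region of 3614 bp, chr1:172709226-172712839, followed 11170 bp from the same TSS after a gap of 1255 bp. That UP region lies in the annotated gene body of Crp, and Orm1 also had an UP region in its gene body. The share of all genes with an UP region in the gene body was not counted. In GENCODE a non-coding transcript extends Crp to 134977 bp (chr1:172698055-172833031), whereas RefSeq ends the gene at 1911 bp, and with the RefSeq gene the UP region lies downstream of Crp and not in it. The GENCODE gene body also held an unchanged region of 1790 bp, 87107 bp from the gene start. Regions covered 9.34% of that gene body. Apcs, the neighboring pentraxin that encodes serum amyloid P, the major pentraxin of the mouse acute phase, starts 196986 bp from Crp. Its TSS lay in an UP region of 3118 bp, with 3 UP, 0 DOWN and 1 unchanged region within 50 kb, while Crp had 1 UP, 1 DOWN and 3 unchanged.

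The orosomucoids, or alpha-1-acid glycoproteins, are lipocalins that carry basic drugs in plasma and dampen immune reactions. Orm1 (chr4:63344560-63348163, plus strand) was the only 1 of the 10 genes with its TSS in an UP region. The UP region of 7898 bp, chr4:63341652-63349549, began 2908 bp upstream and ended 4989 bp downstream of the start, and covered 100% of the gene body with 6 of 6 exons. It was the only UP region within 50 kb of Orm1, beside 4 unchanged regions of 596 to 1509 bp and no DOWN region. The nearest DOWN region to Orm1 was 216685 bp away.

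Orm2 (chr4:63362449-63365878, plus strand) starts 17889 bp downstream of Orm1 and showed another picture. No region held its TSS, and none lay in its gene body. An unchanged region of 596 bp, chr4:63361705-63362300, ended 149 bp upstream of the start, and the UP region over Orm1 ended 12900 bp upstream. The third gene of the cluster, Orm3, starts 11602 bp from Orm1 and also had no TSS in a region, though an unchanged region of 1072 bp began 242 bp downstream of its start. In this cluster of related genes the UP class was therefore listed at Orm1, and small unchanged regions at the other two. The Orm2 promoter is printed because the edge of the 596 bp unchanged region falls inside it. Of its 300 bases (chr4:63362199-63362498, plus strand), 102 (34.0%) lay in that region, and the capitals mark TTGCGCAA, a match to the C/EBP letters on both strands, 120 to 113 bases before the start.
Orm2: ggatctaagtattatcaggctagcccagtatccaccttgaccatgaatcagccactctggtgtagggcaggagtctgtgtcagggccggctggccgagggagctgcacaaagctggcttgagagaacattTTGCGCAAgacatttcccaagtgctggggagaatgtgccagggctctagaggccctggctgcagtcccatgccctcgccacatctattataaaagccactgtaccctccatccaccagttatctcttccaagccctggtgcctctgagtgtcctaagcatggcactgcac

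The orosomucoid genes are similar in sequence, and reads that map to several places can be lost or shared between copies. The libraries were sequenced in single reads of 50 bases, and what was done with reads that map to several places is not given in the sources used here. Over all sequences of GRCm38.p6, 99.3% of the 50-base stretches within 500 bp of the Orm1 start and 98.2% of those at the Orm2 start occurred once. All 7 repeated stretches at Orm1 were also found at Orm2. Over the whole UP region at Orm1 90.3% of stretches were unique, the lowest of the 6 regions at member TSSs, which together came to 96.1%.

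The serum amyloid A (SAA) genes encode apolipoproteins of HDL. Saa1 and Saa2 are the strongly induced liver forms, Saa3 is expressed mainly outside the hepatocyte, and Saa4 is the constitutive form. The 4 genes lie within 36090 bp between the starts of Saa3 and Saa2 on chromosome 7. No UP and no DOWN region lay within 50 kb of any of their TSSs, and each had 6 or 7 unchanged regions there. Across all 12261 genes with a TSS in a region, 53% had an UP region and 31.9% a DOWN region within 50 kb. Of the SAA genes only Saa4 belongs to that set. The nearest DOWN region, at Sergef, lay from 96966 bp (Saa3) to 135007 bp (Saa2) away, and the nearest UP region, at Tsg101, from 164134 bp (Saa2) to 200305 bp (Saa3) away.

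Saa4 (chr7:46727998-46732603, minus strand) was the only SAA gene with its GENCODE TSS in a region. The unchanged region of 1329 bp, chr7:46731537-46732865, spanned 262 bp upstream and 1066 bp downstream of the start and covered 2 of 4 exons and 23.2% of the gene body. Saa1 (chr7:46740497-46742980, minus strand) lay in a gap of 6150 bp between an unchanged region of 1705 bp, whose edge was 2630 bp upstream of the start, and another of 1596 bp, 3483 bp downstream of the nearest TSS. Saa2 (chr7:46751790-46754313, plus strand) starts 8810 bp from Saa1 on the opposite strand, and the same 1705 bp region is its nearest, 4476 bp upstream. The gap that holds Saa2 was 13808 bp long, up to an unchanged region of 405 bp in Hps5. The region of 1705 bp thus sits between the divergent starts of Saa1 and Saa2 and holds neither. Saa3 (chr7:46711998-46715700, minus strand) lay in a gap of 8577 bp, with an unchanged region of 985 bp 3619 bp upstream of its GENCODE start. RefSeq extends Saa3 upstream to position 46719615, which is inside that 985 bp region, so by the 5' end of the RefSeq gene Saa3 had its start in an unchanged region.

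The promoter windows of the RefSeq table are set at 1 start per gene, which need not be the 5' end of the RefSeq gene. For Saa3 the window, chr7:46715627-46715926, covers the GENCODE start, and for Saa1 the RefSeq gene begins at position 46743181, inside the window. The promoters of Saa1 and Saa2 are printed since neither had a base in a region and since they are nearly the same sequence, with 287 identical bases in 301 aligned columns (95.3%). Pairs with Saa3 or Saa4 were 50.1% to 55.9% identical. Saa1 is chr7:46742931-46743230 on the minus strand and Saa2 is chr7:46751583-46751882 on the plus strand, both from RefSeq (GRCm38.p6), and the capitals mark the C/EBP letters TTNNGCAA as read on the reverse strand.
Saa1: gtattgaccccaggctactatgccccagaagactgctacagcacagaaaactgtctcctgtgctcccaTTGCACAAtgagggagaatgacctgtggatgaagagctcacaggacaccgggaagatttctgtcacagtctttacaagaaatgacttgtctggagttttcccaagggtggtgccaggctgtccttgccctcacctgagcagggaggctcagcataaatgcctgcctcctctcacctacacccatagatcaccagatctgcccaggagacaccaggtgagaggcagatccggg
Saa2: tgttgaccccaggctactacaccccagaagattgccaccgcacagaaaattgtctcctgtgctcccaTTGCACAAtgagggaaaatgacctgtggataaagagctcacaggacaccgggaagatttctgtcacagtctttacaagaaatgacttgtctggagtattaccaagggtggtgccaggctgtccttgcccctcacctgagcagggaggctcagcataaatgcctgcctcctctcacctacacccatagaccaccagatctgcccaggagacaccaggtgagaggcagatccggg

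The likeness continued into the genes. In the 500 bp before the Saa1 start 89.6% of 50-base stretches occurred once over all sequences of GRCm38.p6, and in the 500 bp from the start 34.6%. For Saa2 the values were 96.5% and 44.1%. Of the 348 repeated stretches within 500 bp of the Saa1 start, 324 (93.1%) were also found at Saa2, and all 280 repeated stretches at Saa2 were also found at Saa1. At Saa3 and Saa4 100% of the stretches within 500 bp of the start were unique. Saa1 and Saa2 are thus the 2 members with the fewest unique stretches, and both lacked a region at the start, but so did Saa3 and Orm2, where nearly all stretches were unique. The part of repeated sequence in these gaps was not tested.

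**Figure D2:**
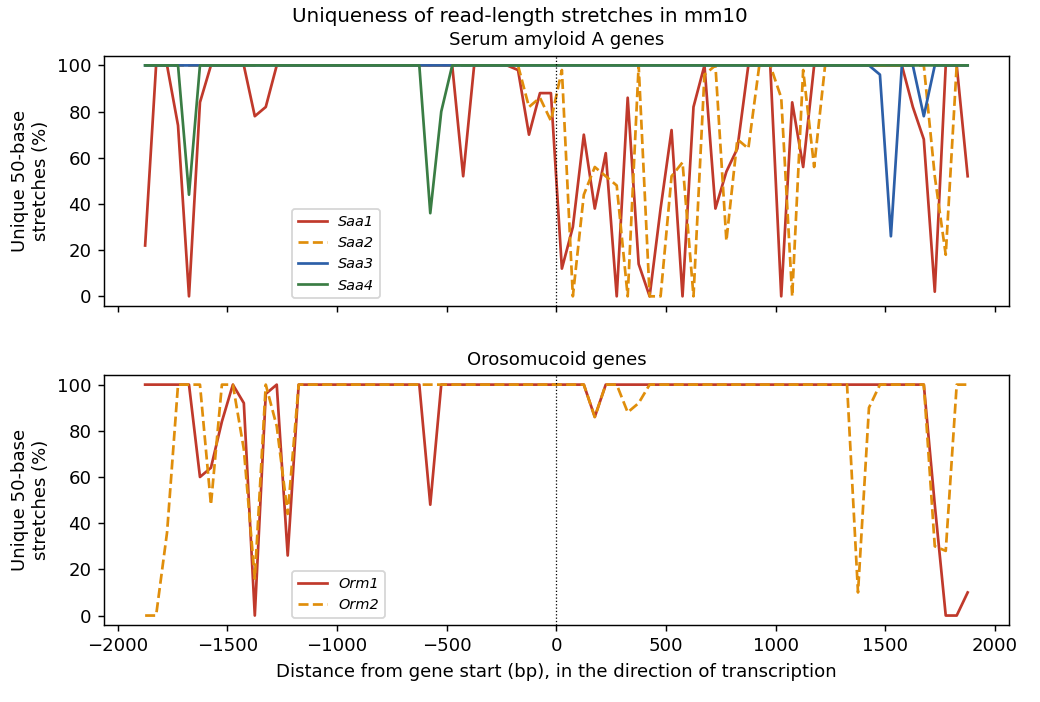
Percent of 50-base stretches that occur once over all sequences of GRCm38.p6 (vertical axis), in bins of 50 bp by distance from the gene start in bp (horizontal axis, in the direction of transcription). The SAA genes are above and Orm1 and Orm2 below. The Saa1 and Saa2 lines fall repeatedly toward 0 after the start, where 34.6% and 44.1% of stretches in 500 bp were unique, while the Saa3 and Saa4 lines stay at 100% within 500 bp of it.

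Lipocalin 2 (Lcn2) encodes a protein that withholds iron from bacteria by binding their siderophores, and in the liver it responds strongly to IL-6 and IL-1. Of its 6 annotated TSSs, 4 lay in an unchanged region of 3491 bp, chr2:32386313-32389803, which extended 1551 bp upstream and 1939 bp downstream of the gene start (chr2:32384633-32388252, minus strand) and covered 53.6% of the gene body. With 9 regions, Lcn2 had the most within 50 kb of the 10 genes, 7 unchanged and 2 DOWN. The DOWN regions of 9768 bp and 1963 bp lay 28479 bp and 48046 bp upstream. Both overlapped another gene, Slc25a25, a mitochondrial ATP-Mg/phosphate carrier, and the first of them holds a start of that gene. The nearest UP region was 81986 bp away. In the 500 bp before the Lcn2 start 78.7% of stretches were unique, against 100% in the 500 bp from it, and none of the 96 repeated stretches was shared with another member.

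The Lcn2 and Saa4 promoters are printed as those that lie entirely in unchanged regions, for comparison with the pair in DOWN regions. Lcn2 is chr2:32387690-32387989 and Saa4 is chr7:46732554-46732853, both on the minus strand (RefSeq, GRCm38.p6), with the C/EBP letters in capitals. The Lcn2 window is set at the RefSeq start, position 32387739. It lies inside the GENCODE gene body, which starts upstream at position 32388252.
Lcn2: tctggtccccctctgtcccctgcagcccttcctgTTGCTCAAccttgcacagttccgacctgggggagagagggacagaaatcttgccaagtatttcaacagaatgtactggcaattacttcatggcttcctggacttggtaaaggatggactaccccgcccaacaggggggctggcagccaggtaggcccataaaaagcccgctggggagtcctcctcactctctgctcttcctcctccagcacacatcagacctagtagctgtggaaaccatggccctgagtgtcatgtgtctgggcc
Saa4: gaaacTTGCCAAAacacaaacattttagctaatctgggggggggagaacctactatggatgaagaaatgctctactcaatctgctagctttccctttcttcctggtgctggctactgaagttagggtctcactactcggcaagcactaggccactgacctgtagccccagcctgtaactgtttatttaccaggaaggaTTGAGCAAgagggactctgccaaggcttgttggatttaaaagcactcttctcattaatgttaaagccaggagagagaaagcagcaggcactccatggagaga

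Promoter letters were compared for the 8 members with a RefSeq promoter, which are all but Orm1 and Hp. TTNNGCAA, searched on both strands, was found in 7 of 8 promoters, against 10.8% of 32851 promoters of the same length. Crp was the promoter without it. Positions of matches are counted from the start at which each promoter window is set. For Lcn2 that start, and the match, lie downstream of the GENCODE gene start. The Saa1 and Saa2 promoters are 95.3% identical and hold the same match, so they do not count as independent promoters. The match lay 182 to 175 bases before the start in Saa1 and 183 to 176 bases before it in Saa2, 99 to 92 in Saa3, 200 to 193 in Hpx and 216 to 209 in Lcn2, while Saa4 had matches 52 to 45 and 245 to 238 bases before the start. GGNNTTTCC, the letters for NF-kB, was found only in Saa3, 187 to 179 bases before the start, against 5.82% of all promoters. None of the 8 held TTCNNNGAA for STAT factors (8.3% of all promoters), TGATGCAA for ATF4 with CHOP (0.895%), TTANGTAA for NFIL3 and PAR-bZIP factors (2.32%), CAAAGTCCA for HNF4 (0.475%) or TGACGTGG for ATF6 and XBP1 (0.676%). Among the promoters searched, none of which lay in an UP region, the C/EBP letters were present in a DOWN region (Hpx), in unchanged regions (Saa4 and Lcn2), at a region's edge (Orm2) and in no region (Saa1, Saa2 and Saa3). A match is a description of the letters in this window, and a missing match says only that these letters are not in it.

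The member regions also differed in width. Among the 928 DOWN regions with a TSS, the median width was 3828.5 bp, and the Hp, Hpx and Crp regions were at least as wide as 90.8%, 91.7% and 63.3% of them. The Orm1 region was at least as wide as 93.9% of the 2047 UP regions with a TSS, whose median was 2136 bp. Among the 7667 unchanged regions with a TSS (median 1530 bp), Lcn2 ranked at 86.4% and Saa4 at 42.2%. The 4 changed regions at member starts were thus all wider than the median of their class, and each covered most or all of its gene, with Crp taken as its coding transcript.

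**Figure D3:**
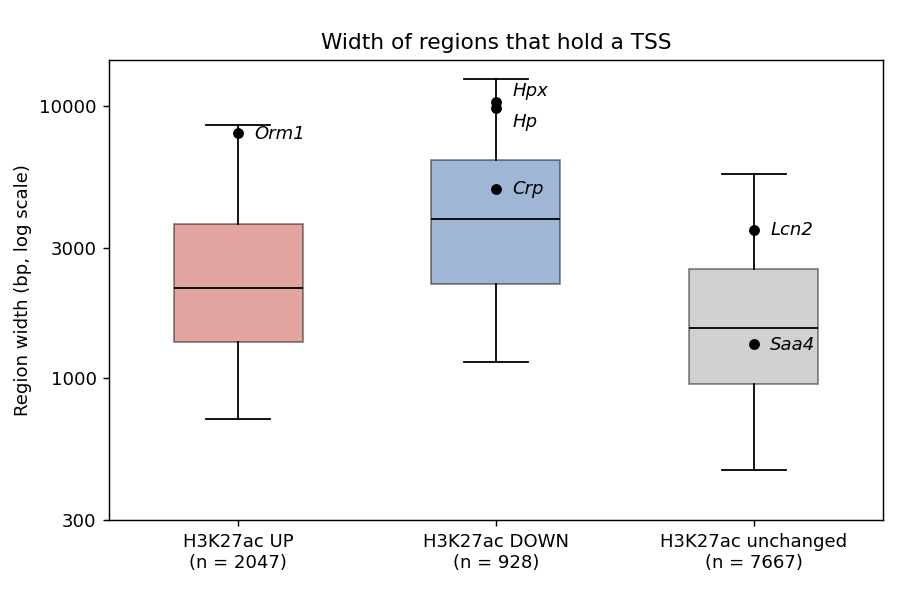
Width in bp (log scale) of all regions that hold a TSS, by class, with the 6 regions at member TSSs as points. Boxes span the quartiles with the median as a line and whiskers run from the 5th to the 95th percentile; the Hp and Hpx regions (9757 and 10322 bp) and the Orm1 region (7898 bp) lie between the box and the upper whisker of their class.

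Within 50 kb of the TSSs, the 10 genes had 35 distinct regions with 92398 bp in all. Of these, 4 (11.4%) were UP, 7 (20.0%) DOWN and 24 (68.6%) unchanged, beside 17.1%, 10.5% and 72.4% of all 32196 regions. Counted in base pairs, 16.5% were UP, 46.4% DOWN and 37.2% unchanged, against 21.2%, 18.0% and 60.8% over all regions. The DOWN base pairs lay near 4 of the 10 genes, Hp (15214 bp), Lcn2 (11731 bp), Hpx (10949 bp) and Crp (4944 bp). Those near Lcn2 were in regions that overlap Slc25a25 and not Lcn2. The DOWN regions had a median width of 5457 bp, the UP regions 2767 bp and the unchanged regions 1200.5 bp. Hp, Hpx and Lcn2 had more DOWN than UP regions in the window, 3 of 10 genes, against 19.3% of the 12261 genes with a TSS in a region. Orm1 and Orm2 had more UP than DOWN regions, through the region they share, against 41.5% of those genes. Crp had 1 of each and the SAA genes 0 of each. At least 1 unchanged region lay in the window of all 10 genes, as for 96.8% of the genes with a TSS in a region. The 10 genes had a median of 5.5 regions in the window (4 to 9), against 4 over those genes. All 12261 genes have a TSS in a region, whereas Saa1, Saa2, Saa3 and Orm2 have none, so the sets compared are unlike. Hp, Hpx and Lcn2 are all among the 6 members with such a TSS.

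Other genes of the acute-phase response were counted from lists. Of 22 further induced acute-phase proteins, 20 had a TSS in a region, with 3 UP, 4 DOWN and 13 unchanged only. The DOWN genes were Fgb, a fibrinogen chain (10425 bp), the complement genes C3 (9663 bp) and Cfb (3829 bp), and Lrg1, a leucine-rich glycoprotein (3399 bp). The UP genes were Fgl1, a fibrinogen-like hepatokine (6293 bp), Apcs and Il1rn, the IL-1 receptor antagonist, which had a further TSS in an unchanged region. Fga and Fgg, which encode the other fibrinogen chains, had unchanged regions of 5658 bp and 9301 bp, so the classes were mixed within the fibrinogen locus as within the orosomucoid cluster. Of 9 acute-phase proteins that fall in inflammation, 8 had a TSS in a region, with 0 UP, 3 DOWN and 5 unchanged only. The DOWN regions were at Ahsg, fetuin A (25256 bp), Apoa1, the main HDL protein (14886 bp), and Trf, transferrin (10312 bp), which also had TSSs in unchanged regions. Over all genes with a TSS in a region 21.4% were UP and 8.91% DOWN. The lists are too short for their UP or DOWN counts to be read as different from those shares or from each other.

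**Figure D4:**
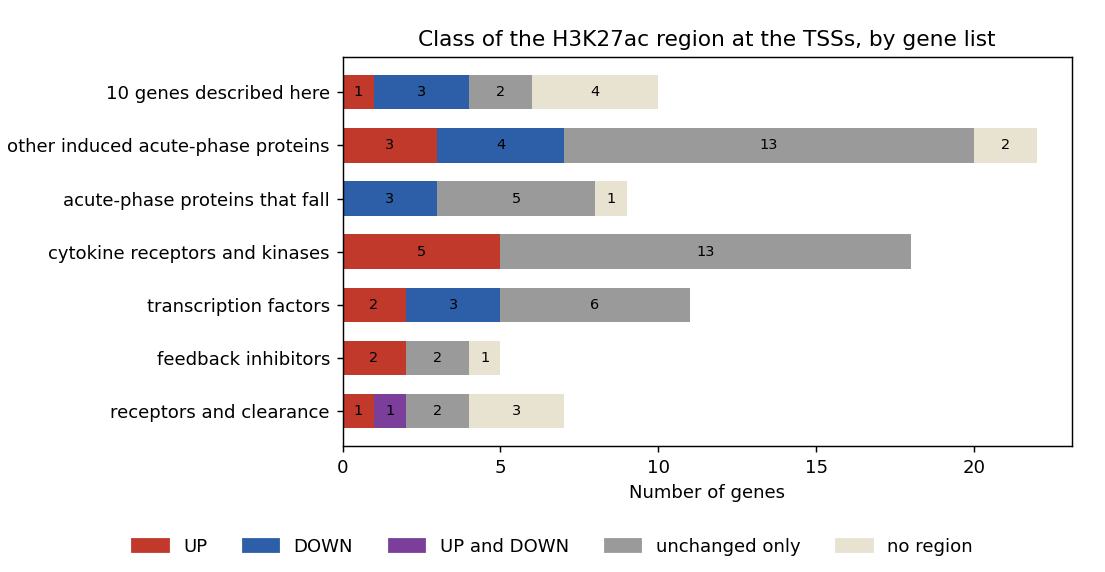
Number of genes (horizontal axis) by class of the region at their TSSs, for the 10 genes described here and 6 lists of related genes. The cytokine receptors and kinases hold 5 UP and 0 DOWN genes of 18 and the transcription factors 2 UP and 3 DOWN of 11, in a background of 21.4% UP and 8.91% DOWN.

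Upstream of these proteins, the 18 listed cytokine receptors and kinases all had a TSS in a region, with 5 UP, 0 DOWN and 13 unchanged only, in a background of 21.4% UP and 8.91% DOWN over the genes with a TSS in a region, and no pattern is read from so few genes. The UP genes were the IL-6 receptor Il6ra (4059 bp), the IL-1 receptor Il1r1 (6975 bp), the kinase Jak2 (3347 bp) that acts below cytokine receptors, and the I-kappa-B kinases Chuk (2591 bp) and Ikbkb. Il1r1 and Ikbkb had further TSSs in unchanged regions. The gp130 chain Il6st had an unchanged region of 4409 bp. All 11 listed transcription factors had a TSS in a region. Stat3, which conveys the IL-6 signal and had a further TSS in an unchanged region, and Cebpb, the C/EBP factor most tied to the acute phase (8393 bp), were UP. Cebpd, a related C/EBP factor (4685 bp), Rela, the p65 subunit of NF-kB (2417 bp), and Creb3l3 (3903 bp) were DOWN. The other 6 were unchanged only, among them Cebpa (7316 bp) and Nfkb1. Of 5 feedback inhibitors, Nfkbia, the NF-kB inhibitor (6061 bp), and Pias3, an inhibitor of STAT3 (460 bp), were UP, Socs1 and Socs3 were unchanged, and Tnfaip3 had no region at its TSSs. Among 7 genes for receptors and clearance, Hmox1, the heme oxygenase that degrades the heme delivered by hemopexin, was UP (9923 bp), and Lrp1, the hemopexin receptor, had TSSs in both an UP and a DOWN region, as did 0.343% of genes with a TSS in a region. Tlr2 and Tlr4 were unchanged, and Cd163 (the haptoglobin-hemoglobin receptor), Slc22a17 and Fpr2 had none.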

How the data were processed

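H3K27ac ChIP-seq of MPH was carried out by the authors with 50-base single reads. Per the labels, Bowtie and MACS2 were used on mm10. Per the authors' methods and code, broad peaks were called on pooled libraries, reads were extended to 200 bp and counted in 150 bp bins, bins were filtered against input (prior count of 5) and normalized by loess, and csaw fitted quasi-likelihood models blocked by mouse. Bins overlapping a peak by at least 75 bp were combined. UP and DOWN regions had an FDR of at most 0.05 and an UP to DOWN bin ratio of at least 2 or at most 0.5. The deposited values are positions in bp, with no count, signal or p-value. As written, that code sets thapsigargin as the reference level, and the direction was therefore read from Hspa5, Ddit3 and Herpud1. No signal track was used.

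Regions were intersected with GENCODE M21 TSSs and gene bodies. Distances were measured from the TSS, in whole bp. A gene was counted in each class holding any of its TSSs. Exact 50-base stretches (36 as an alternative) were counted on both strands of all 239 sequences of GRCm38.p6, not of the chromosomes alone. A stretch repeated only on a sequence outside the chromosomes therefore counts as repeated. Promoters came from RefSeq, with 8 of 10 members matched. No test was run. Named genes were the 10 members, list genes with a TSS in an UP or DOWN region, genes starting in a region with a member TSS, and nearest changed regions. Other genes, such as Fga, Fgg, Il6st, Cebpa and neighbors at regions, were named after their values were seen. Of the transcription factors and the motifs searched, 1 each is not reported here. Members and lists were chosen with earlier results of these data known. Counting functions were tested on simulated data. Alternatives were windows of 10 kb and 100 kb, TSSs within 1 kb, regions covering 500 bp on each side of a TSS, regions of at least 1 kb, starts of protein-coding or basic transcripts, the gene's own 5' end, regions wholly in the window, region centers in the gene body, base pairs in place of regions, and, added later, RefSeq starts. Python 3.11.15, numpy 2.4.6 and matplotlib 3.10.9 were used.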

Additional observations from a re-analysis of the deposited data

How the results depend on the processing

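The libraries were combined in the lists, so leaving out a library was not run, and what depth limits cannot be stated. No paired analysis was possible because the lists hold no value per library. Of 49 alternative values, 41 stayed within 1.5 times of the reported value, and 8 moved. The genes with a TSS in an UP region (Orm1) and in a DOWN region (Hp, Hpx and Crp) were the same under all 7 alternatives tried for them. Where a region had to extend 500 bp both upstream and downstream of the TSS, 1 gene in place of 2 (Lcn2) had an unchanged region, since the Saa4 region ends 262 bp upstream. With regions within 1 kb the count was 3 with Orm2, and with the RefSeq 5' end, an alternative chosen after seeing the data, it was 3 with Saa3. UP regions near the genes numbered 4 within 50 kb, 1 within 10 kb and 7 within 100 kb. Unchanged regions numbered 24 within 50 kb, 14 within 10 kb, 37 within 100 kb and 13 with regions of at least 1 kb. In base pairs in place of regions, DOWN regions made 46.4% and unchanged regions 37.2%, since DOWN regions were wider. The count of genes with more DOWN than UP regions was 3 at each window, but the genes were Hp, Hpx and Crp within 10 kb and Saa3, Hp and Hpx within 100 kb, and 2 (Hp and Lcn2) with regions of at least 1 kb.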
